A study of Mus musculus with 12 samples.

Results

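The genes described here are 43 antiviral interferon-stimulated genes, taken by symbol from the table of raw read counts of mouse bone marrow progenitors that carried a pair of leukemia oncogenes singly or together. The table held 51912 genes, of which 16360 passed the expression filter, and every one of the 43 was found once and passed it. The set was chosen by gene name, with earlier results of these data known. It leaves out the interferon regulatory factors, the STAT factors, the guanylate-binding proteins and the Ifi200 family, which are set beside it below where they show a difference.

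Bone marrow of C57BL/6 mice was grown with IL-3, IL-6, SCF and medium conditioned by WEHI cells while it was transduced with retroviral vectors, and cells that lacked mature lineage antigens and were positive for the GFP and RFP markers of the vectors were sorted, frozen and used for RNA-seq with a low-input kit that amplifies cDNA by PCR. The 4 groups, each with 3 biological replicates lettered A, B and C, were cells with both mutants (CEBPA V314VW and CSF3R T618I), cells with mutant CEBPA (V314VW), cells with mutant CSF3R (T618I) and cells with empty vector. The first gene encodes a transcription factor that granulocytes need in order to form, and V314VW alters its C-terminal part. The second encodes the receptor of the cytokine G-CSF, which T618I makes active without its ligand. All groups shared the strain, the cytokines, the transduction and the sort. The mutants were expressed from retroviral vectors in cells that kept their own Csf3r and Cebpa genes, the age of the donor mice and the pooling of marrow are not given in the labels, and no label gives a batch.

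Type I interferons are secreted proteins that a cell releases when its sensors meet viral nucleic acid. They bind a receptor made of IFNAR1 and IFNAR2, whose kinases JAK1 and TYK2 phosphorylate STAT proteins, and these join IRF9 to form a complex that binds a DNA element called the interferon-stimulated response element, or ISRE, before many genes. The products of those genes block viral entry, translation, replication and release, and some of them, such as USP18, shut the signal off again. In hematopoietic stem and progenitor cells a part of this program is also present without infection.

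Library totals ran from 44210071 to 67431235 counts, and expression is given as CPM, the counts of a gene scaled to a common library size. The words rose and fell are kept for an edgeR adjusted p, over all 16360 genes, under 0.05. The spread between replicates, as a coefficient of variation beyond counting error, was 0.0455 with both mutants, 0.138 with mutant CEBPA, 0.265 with mutant CSF3R and 0.146 with empty vector. Lars2, which encodes a mitochondrial leucyl-tRNA synthetase, took 1.64% of the counts of replicate A of mutant CSF3R, the highest share of the 12 libraries. In bulk RNA, fewer cells that make a transcript and less of it per cell cannot be told apart, and this applies to every value below.

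Promoter sequences are shown first, since ISRE letters are what the members are known to share. Of the 43 members, 31 were matched by symbol to RefSeq promoter windows on GRCm38.p6, each of 300 bases, of which 250 lie before the start of the transcript and 50 after it. Mx1, Mx2, Oas2, Dhx58, Zbp1, Ifi27, Ifi27l2a, Parp9, Parp14, Ly6e, Usp18 and Rtp4 were not matched. The ISRE core was searched as GAAANNGAAA on both strands, where N is any base and matches may overlap each other. It was present in 14 of the 31 members, or 45.2%, and in 3.99% of the 27025 genes with such a window. The other interferon element, the gamma-activated site, was searched as TTCNNNGAA on both strands and was present in 7 of the 31 members, or 22.6%, against 9.55% of all genes. These counts describe letters in the windows and were not tested.

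The windows of 60 bases below are examples, chosen with the results known, from members that hold the core before the start. Oas3, Lgals9 and Trim30a also hold a core there and are not printed. The printed windows are written in the direction of the gene, and capitals mark the bases of a match on either strand. These windows lie at chr4:156200856-156200915 (Isg15, minus strand), chr19:34640769-34640828 (Ifit1, plus strand), chr19:34583365-34583424 (Ifit3, plus strand), chr12:26456538-26456597 (Rsad2, minus strand), chr5:120907526-120907585 (Oas1a, minus strand), chr5:120887614-120887673 (Oas1g, minus strand) and chr8:71537565-71537624 (Bst2, minus strand).
Isg15: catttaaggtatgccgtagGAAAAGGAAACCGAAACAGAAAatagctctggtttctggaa
Ifit1: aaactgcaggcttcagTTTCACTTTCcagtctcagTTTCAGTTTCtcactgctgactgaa
Ifit3: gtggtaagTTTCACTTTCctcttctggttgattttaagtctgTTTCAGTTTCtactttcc
Rsad2: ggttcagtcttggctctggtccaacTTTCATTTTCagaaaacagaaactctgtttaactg
Oas1a: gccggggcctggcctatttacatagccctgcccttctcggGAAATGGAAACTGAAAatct
Oas1g: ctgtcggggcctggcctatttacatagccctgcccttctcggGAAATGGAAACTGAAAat
Bst2: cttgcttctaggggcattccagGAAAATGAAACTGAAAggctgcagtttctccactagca

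Isg15 held 3 overlapping matches in a run, and Oas1a, Oas1g and Bst2 held 2 overlapping matches each. Ifit1 and Ifit3 held 2 separate matches each, all on the other strand, and Rsad2 held 1. In Oas1a and Oas1g, which are near copies of each other, the matches ended 5 and 3 bases before the start. The other members with a core in the window were Ddx58, Eif2ak2, Ifih1, Ifitm3, Lgals9, Oas3 and Trim30a. The 14 members with a core had a median log2 fold change of 1.31 for mutant CEBPA against empty vector (range 0.44 to 5.18), and the 17 without one had a median of 0.85 (range 0.41 to 4.39), a description with no test.

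**Figure D1:**
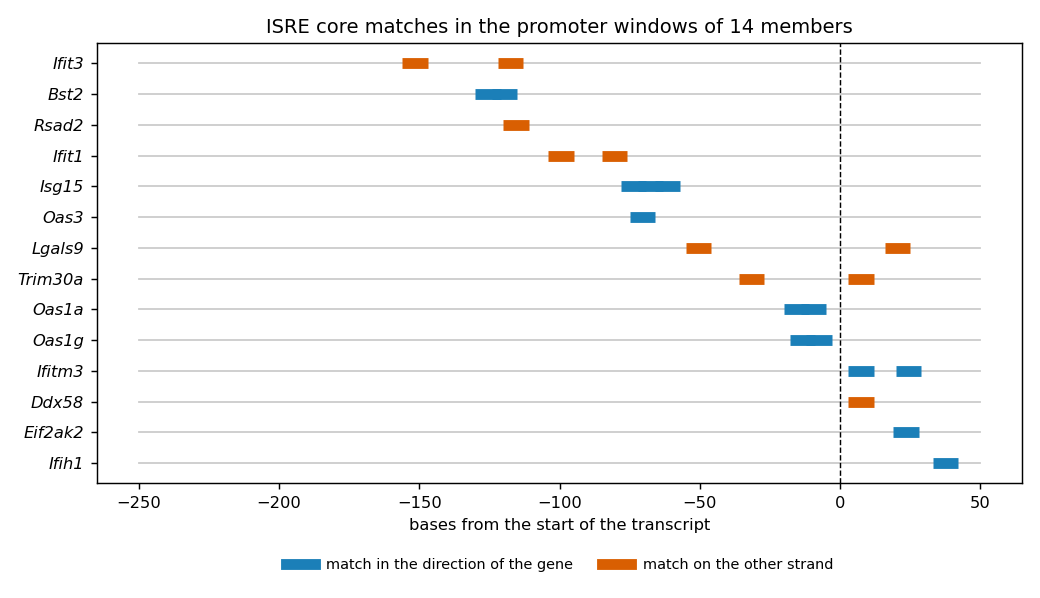
Positions of ISRE core matches in the promoter windows of the 14 members that held one. The horizontal axis gives bases from the start of the transcript, grey lines are the windows, and colours give the strand of the match. Trim30a had 2 windows with different starts, which share 1 line. Of these members, Ifit3, Bst2, Rsad2, Ifit1, Isg15 and Oas3 held theirs between 156 and 57 bases before the start.

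The first question was what mutant CEBPA changes on its own, relative to empty vector. Antiviral genes of every functional group rose, among them sensors of viral RNA, effectors that act on it and the ISG15 system. Of the 43 members, 40 rose and 0 fell, while 9.5% of all genes tested rose and 7.68% fell. All 43 had a positive log2 fold change, 0 were lower at an unadjusted p under 0.05 by edgeR or at an adjusted p under 0.05 by DESeq2, and the median was 1.21, against 0.00414 over all genes. Of the 40, 26 also had a log2 fold change over 1. Ifit3, among the 40, passed the filter only through mutant CEBPA and both mutants, so its direction was fixed. The highest group was mutant CEBPA for 41 members, and in 40 of them all 3 mutant CEBPA libraries lay above all 9 others, which held for 8.81% of all genes. With each library left out in turn, between 33 and 41 members rose, and 33 of the 40 kept their call every time. The other 7, Oas1g, Ifi27l2a, Samd9l, Ifi35, Eif2ak2, Adar and Lgals9, lost it without 1 or another library of mutant CEBPA or empty vector. Ifi35 also lost it without libraries outside the comparison, namely any 1 of both mutants or replicate B of mutant CSF3R.

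With mutant CSF3R alone, most OAS genes, the ISG15 protease gene Usp18, the nucleotide kinase gene Cmpk2 and the Ifi27 pair were among the members that fell, and most others did not pass the test. Against empty vector, 16 members fell and 1 rose, where 9.66% and 10.0% of all genes did so. The median log2 fold change was -0.49. The libraries of this group disagreed in size, with a median log2 ratio to empty vector over the members of -0.73 in replicate A, -0.59 in B and -0.28 in C. The number that fell was 26 without replicate C of mutant CSF3R and 13 without replicate B of empty vector. It was 12 with only the compared groups fitted. Scaling by total counts instead of TMM, which moved the median of all genes by -0.109, gave 25 (member median -0.51 relative to that of all genes). Of the 16, 13 kept their call with any library left out, and Dtx3l, Oasl1 and Ifi27l2a did not.

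With both mutants, the rise seen with mutant CEBPA was not present for most members. Against empty vector, 19 members fell and 4 rose, where 10.7% of all genes fell and 10.7% rose, and the median log2 fold change was -0.52. Ifit3 was among the 4, and its direction here and against mutant CSF3R was fixed by the filter. Of the 19, 14 kept their call with any library left out, and Rtp4, Mx2, Xaf1, Ifi35 and Ly6e did not. Against mutant CEBPA, 40 members were lower and 1 was higher, where 10.1% and 7.79% of all genes were, with a median of -2.11. Against mutant CSF3R, 8 were higher and 8 lower, where 8.43% and 10.1% of all genes were, with a median of -0.03 that was 0.05 with total counts. These last counts depended on the libraries: the higher count ran from 5 (without replicate B of mutant CSF3R, B of both mutants or C of both mutants) to 13 (without replicate C of mutant CSF3R), and the lower count fell to 3 without replicate B and to 4 without replicate A of both mutants. The comparisons share libraries, so they are not independent of one another.

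The interaction term asks whether the effect of mutant CSF3R differed in the presence of mutant CEBPA, and it is the log2 effect with mutant CEBPA minus the effect without. It was negative at an adjusted p under 0.05 for 31 members and positive for 0, where 1.27% and 0.501% of all genes were. At an unadjusted p under 0.05, 1 member (Ifit2) was positive, and DESeq2 called 0 positive. The median over the members was -1.39, against -0.04 over all genes. With each library left out in turn, between 21 and 31 members were negative. The call held every time for 21 of the 31, and it was lost without at least 7 of the 12 libraries, each left out on its own, for Ifit1, Ifi44, Mx2, Ddx58, Bst2, Ifi27l2a, Ifi35, Epsti1, Sp100 and Ifitm3. With replicates of the same letter blocked, 8 of these 10 lost it as well.

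**Figure D2:**
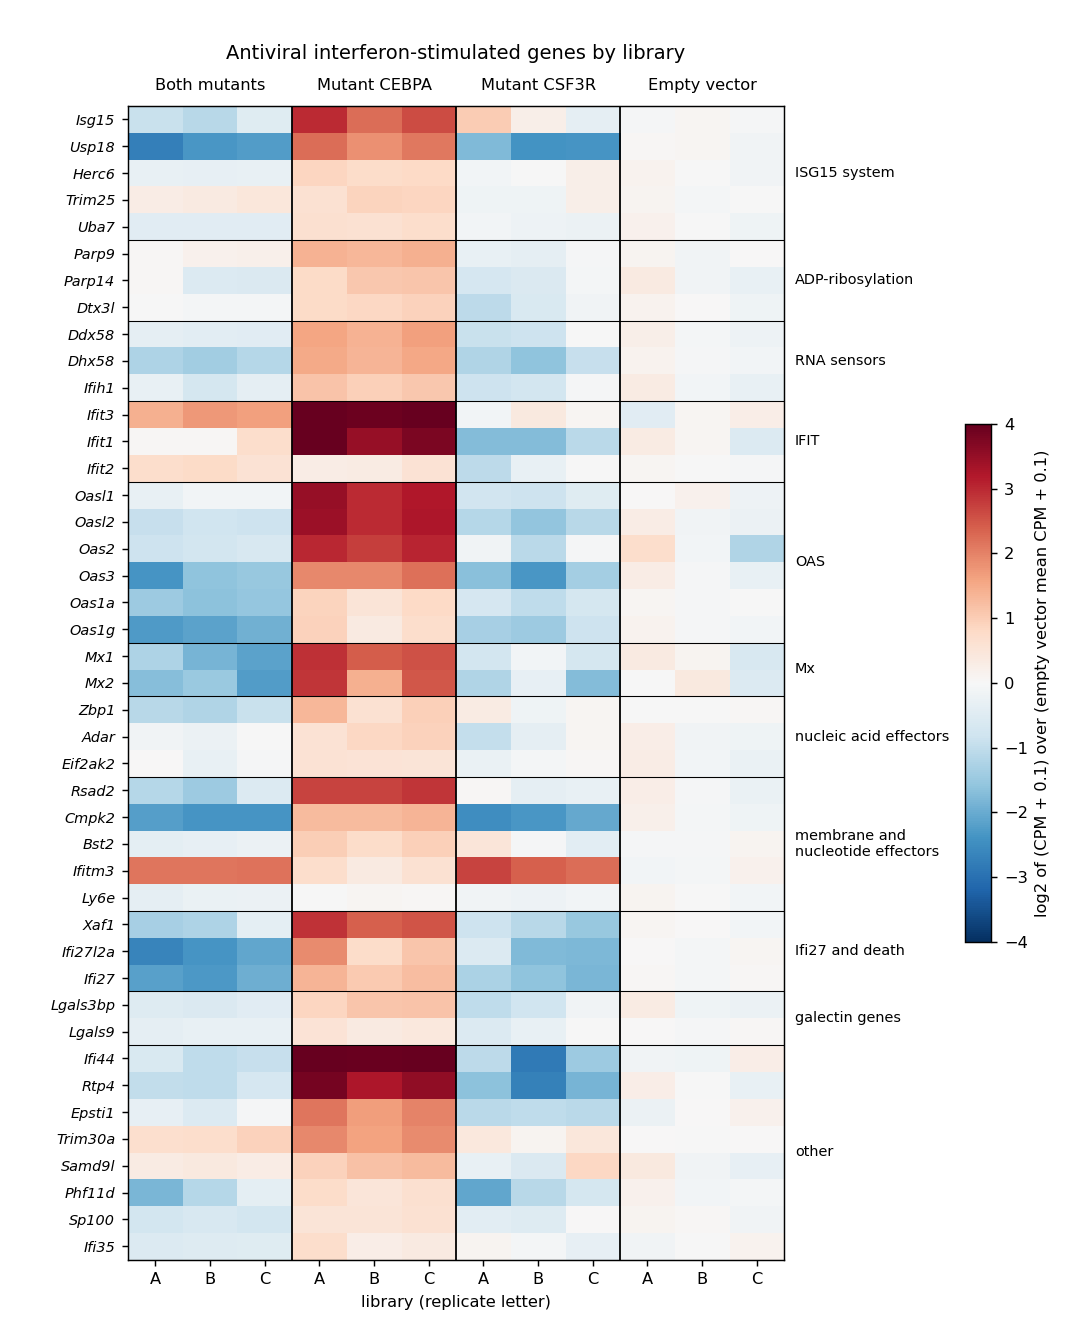
Heat map of the 43 members (rows, grouped by role) in the 12 libraries (columns, replicates A, B and C of both mutants, mutant CEBPA, mutant CSF3R and empty vector). Colour is the log2 of CPM plus 0.1 over the empty vector mean plus 0.1, and the scale ends at 4 in either direction. The mutant CEBPA columns are red for almost every row, the columns of both mutants are mostly pale or blue, and Ifitm3 is red with both mutants and with mutant CSF3R.

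The ISG15 system attaches a small ubiquitin-like protein to viral and host proteins. Its members here are the modifier Isg15, the activating enzyme Uba7, the ligases Herc6 and Trim25, and Usp18, a protease that takes ISG15 off and also blocks the interferon receptor. All 5 rose with mutant CEBPA, and all 5 were lower with both mutants than with mutant CEBPA. Isg15 (chromosome 4, 156199424 to 156200818, mm10) was at 2.03, 1.75 and 2.73 CPM with both mutants, 31.2, 18.4 and 24.3 CPM with mutant CEBPA, 7.89, 4.61 and 3.001 CPM with mutant CSF3R and 3.77, 4.07 and 3.77 CPM with empty vector. The mutant CEBPA libraries stood above all others, and every library with both mutants lay below every empty vector library. Its log2 fold change for mutant CEBPA against empty vector was 2.67 ± 0.31 (SE, adjusted p = 4.63e-05), and its interaction of -3.91 ± 0.43 (adjusted p = 0.00070) was the largest among members with a mean over 5 CPM in some group. For both mutants against empty vector the value of -0.83 ± 0.31 did not pass (adjusted p = 0.085).

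Usp18 (chromosome 6, 121245906 to 121270917) also fell with mutant CSF3R and with both mutants. It was at 1.44, 1.90 and 2.08 CPM with both mutants, 47.3, 35.5 and 44.05 CPM with mutant CEBPA, 2.89, 1.83 and 1.86 CPM with mutant CSF3R and 10.4, 10.6 and 9.10 CPM with empty vector. No group other than both mutants and mutant CSF3R overlapped with another. Against empty vector it was 4.21-fold higher with mutant CEBPA (adjusted p = 4.63e-06), 4.59-fold lower with mutant CSF3R (adjusted p = 5.03e-06) and 5.54-fold lower with both (adjusted p = 1.42e-06). Uba7, Herc6 and Trim25 rose less with mutant CEBPA, by 0.65, 0.80 and 0.79 on the log2 scale, and of these Uba7 fell with both mutants against empty vector (log2 fold change -0.45 ± 0.10).

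Sensors of viral RNA were represented by Ddx58, which encodes RIG-I, Ifih1, which encodes MDA5, and Dhx58, which encodes their regulator LGP2. All 3 rose with mutant CEBPA, by 1.54, 1.07 and 1.49 on the log2 scale. Mean levels of Dhx58 were 6.10 ± 0.52 CPM with both mutants, 41.5 ± 2.74 CPM with mutant CEBPA, 6.29 ± 1.44 CPM with mutant CSF3R and 14.8 ± 1.37 CPM with empty vector (SD, n = 3 each). Dhx58 alone of the 3 passed the test downwards with mutant CSF3R (log2 fold change -1.24) and with both mutants (-1.28) against empty vector. Ddx58 was there at -0.52 and -0.41 and Ifih1 at -0.49 and -0.44, and the difference between the genes was not tested. Without replicate C of mutant CSF3R, or with total counts, Ddx58 and Ifih1 also passed downwards with mutant CSF3R. Ddx58 did so with the length trend taken out as well. All 3 were lower with both mutants than with mutant CEBPA.

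The OAS family comprises enzymes that make the messenger 2-5A, which switches on RNase L, and the related Oasl1 and Oasl2, of which Oasl1 restrains translation of Irf7 in mice. Their genes lie in a pair of clusters on chromosome 5, with Oasl2 and Oasl1 between 114896936 and 114937915 and Oas2, Oas3, Oas1g and Oas1a between 120730333 and 120907521. All 6 rose with mutant CEBPA, all 6 were lower with both mutants than with mutant CEBPA, and all 6 had a negative interaction. Apart from Oas2, all of them fell with mutant CSF3R. Oasl2 was at 3.49, 3.78 and 3.74 CPM with both mutants, 72.5, 53.0 and 64.2 CPM with mutant CEBPA, 2.98, 2.15 and 3.001 CPM with mutant CSF3R and 8.24, 6.03 and 5.69 CPM with empty vector. The 4 groups of libraries did not overlap, with mutant CEBPA at the top and mutant CSF3R at the bottom. It was 9.49-fold higher with mutant CEBPA (adjusted p = 1.52e-07), 2.47-fold lower with mutant CSF3R (adjusted p = 2.00e-04) and 1.81-fold lower with both (adjusted p = 0.0033), each against empty vector.

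Oasl1 followed at a lower level. It was at 1.68, 1.93 and 1.92 CPM with both mutants, 24.1, 17.1 and 19.8 CPM with mutant CEBPA, 1.18, 1.13 and 1.47 CPM with mutant CSF3R and 2.10, 2.36 and 1.77 CPM with empty vector. Libraries with both mutants overlapped those with empty vector. The log2 fold change for mutant CEBPA was 3.29 ± 0.17, and for both mutants it was -0.17 ± 0.18 (adjusted p = 0.59).

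Oas2 was spread out with empty vector. It was at 2.38, 2.57 and 2.77 CPM with both mutants, 35.7, 30.0 and 36.9 CPM with mutant CEBPA, 3.88, 2.02 and 4.19 CPM with mutant CSF3R and 7.20, 4.0 and 1.81 CPM with empty vector. All 3 mutant CEBPA libraries lay above the rest, and the other 3 groups overlapped. Its log2 fold change for mutant CEBPA was 2.97 ± 0.38 and its interaction -3.35 ± 0.54 (adjusted p = 0.0068), which did not pass with no filter on low counts. Oas1a and Oas1g had the smallest rises of the family with mutant CEBPA, at 1.67-fold and 1.61-fold, and with both mutants they were 2.91-fold and 4.41-fold lower than with empty vector. Of the 100-base stretches in the Oas1a transcripts 40.9% are also in Oas1g, so the counts of this pair are uncertain.

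IFIT proteins bind viral RNA that lacks host cap marks and stop its translation. The 3 members lie next to each other on chromosome 19, between 34550694 and 34650009, and they did not move alike. Ifit1 was at 1.85, 1.86 and 2.97 CPM with both mutants, 30.9, 20.9 and 25.5 CPM with mutant CEBPA, 0.475, 0.472 and 0.799 CPM with mutant CSF3R and 2.28, 1.90 and 1.203 CPM with empty vector. Every mutant CEBPA library was above and every mutant CSF3R library below all of the remaining libraries. It was 14.3-fold higher with mutant CEBPA (adjusted p = 9.30e-07) and 3.12-fold lower with mutant CSF3R (adjusted p = 0.0024) than with empty vector, and with both mutants it was 3.88-fold higher than with mutant CSF3R (adjusted p = 6.78e-04).

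Ifit3 had the largest log2 fold change of any member with mutant CEBPA, 5.18 ± 0.36, from few counts. It was at 0.486, 0.627 and 0.582 CPM with both mutants, 5.51, 3.18 and 4.27 CPM with mutant CEBPA, 0.103, 0.183 and 0.130 CPM with mutant CSF3R and 0.0579, 0.131 and 0.163 CPM with empty vector. The 3 empty vector libraries together held 17 counts and the 3 mutant CSF3R libraries 23. Ifit3 passed the filter only through mutant CEBPA and both mutants, so the direction of these groups against the other 2 was fixed. Unlike most members, Ifit3 rose with both mutants against empty vector (4.77-fold, adjusted p = 8.17e-04). Of its 100-base stretches 31.7% are also in the neighbouring Ifit3b, so its counts are uncertain.

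Ifit2 was the exception in this family. It was at 28.9, 29.9 and 26.6 CPM with both mutants, 21.7, 22.3 and 26.3 CPM with mutant CEBPA, 8.53, 14.3 and 17.3 CPM with mutant CSF3R and 18.4, 17.4 and 17.0 CPM with empty vector. The highest group was both mutants, whose libraries all lay above the other 9. It rose with both mutants against empty vector (1.61-fold, adjusted p = 0.021, lost without replicate A or B of both mutants or B or C of empty vector) and was higher than with mutant CSF3R (2.13-fold, adjusted p = 0.0017). Mutant CEBPA alone gave a log2 fold change of 0.41 ± 0.19 (adjusted p = 0.19), and the interaction of 0.68 ± 0.27, the only positive one among the members, did not pass (adjusted p = 0.36).

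**Figure D3:**
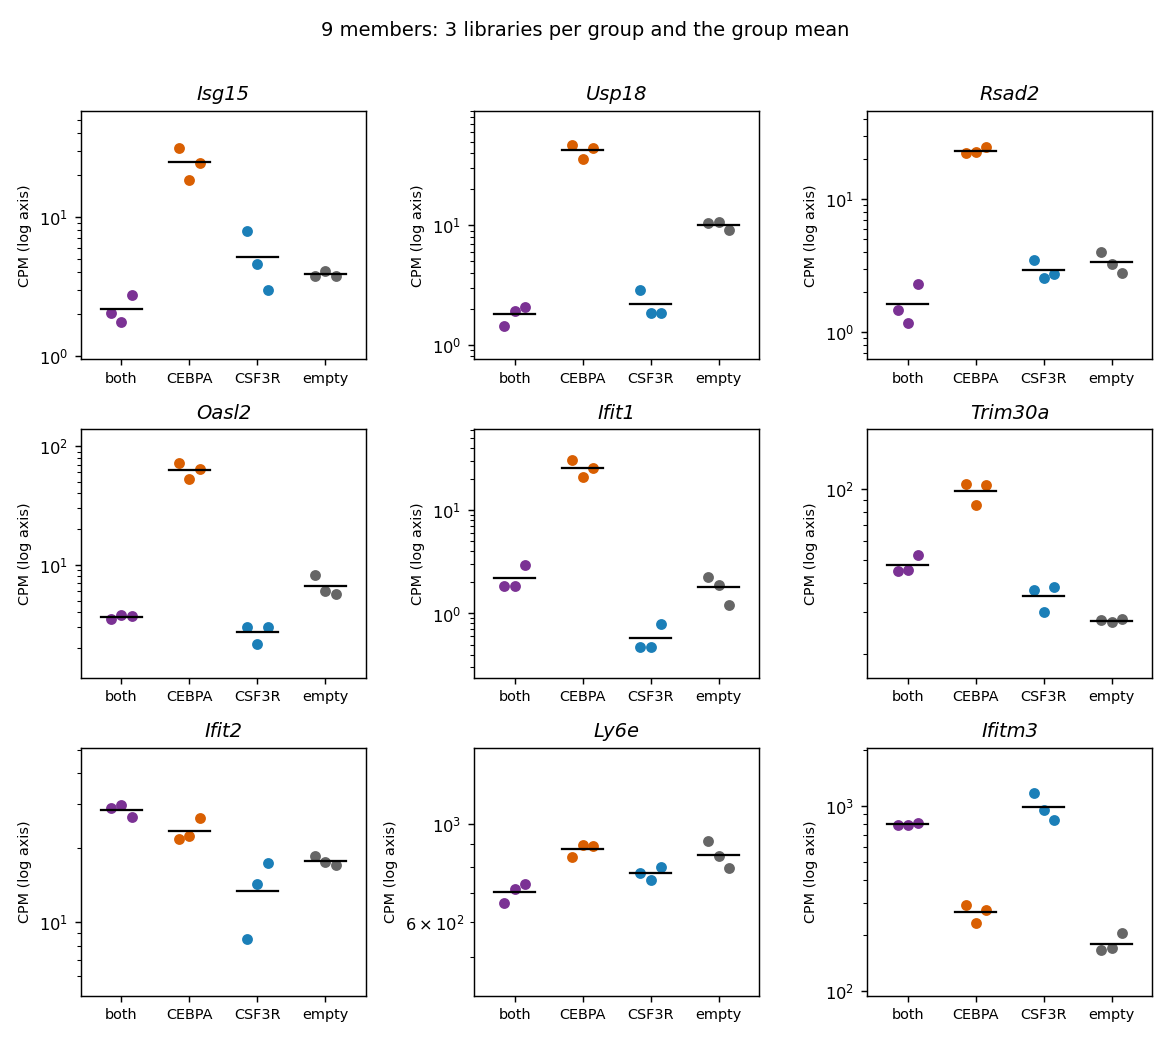
CPM of 9 members in each library on log axes, from left to right both mutants, mutant CEBPA, mutant CSF3R and empty vector; points are the 3 libraries of a group and bars the group mean. Isg15, Usp18, Rsad2, Oasl2, Ifit1 and Trim30a peak with mutant CEBPA, Ifit2 is highest with both mutants, Ly6e varies within 664 to 918 CPM, and Ifitm3 is highest with mutant CSF3R, at 844 to 1174 CPM.

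Rsad2 and Cmpk2 are neighbours on chromosome 12, between 26442746 and 26479837, and are transcribed away from each other. Rsad2 encodes viperin, which turns CTP into a nucleotide that stops viral polymerases, and Cmpk2 encodes a nucleotide kinase that supplies the substrate. Rsad2 was at 1.46, 1.16 and 2.29 CPM with both mutants, 22.5, 22.6 and 24.8 CPM with mutant CEBPA, 3.49, 2.57 and 2.74 CPM with mutant CSF3R and 4.04, 3.26 and 2.77 CPM with empty vector. The mutant CEBPA libraries were close together at the top, and all 3 libraries with both mutants lay below the other 9. It was 6.93-fold higher with mutant CEBPA (adjusted p = 1.81e-06) and 2.04-fold lower with both mutants (adjusted p = 0.0055) than with empty vector, and its interaction was -3.62 ± 0.31. Cmpk2 fell 4.90-fold with mutant CSF3R (adjusted p = 1.78e-07), to a mean of 8.28 ± 1.28 CPM, against 40.5 ± 5.72 CPM with empty vector, where Rsad2 had a log2 fold change of -0.20 ± 0.22 (adjusted p = 0.57).

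Members that act at membranes behaved in different ways. Bst2 encodes tetherin, which holds new virions on the cell surface, and Ifitm3 and Ly6e encode proteins that restrict or modify viral entry. Bst2 rose with mutant CEBPA to a mean of 138 ± 14.03 CPM, against 74.2 ± 4.54 CPM with empty vector. Its mutant CSF3R libraries ran from 55.4 to 103 CPM, with replicate A the highest. Ly6e (chromosome 15, 74955051 to 74959905), at 664, 714 and 731 CPM with both mutants, 842, 900 and 891 CPM with mutant CEBPA, 777, 746 and 798 CPM with mutant CSF3R and 918, 850 and 794 CPM with empty vector, had the smallest change of all members with mutant CEBPA, 0.04 ± 0.08 on the log2 scale. The mutant CEBPA and empty vector libraries overlapped. It was 1.21-fold lower with both mutants than with empty vector (adjusted p = 0.029), a call lost without any 1 of the libraries with both mutants or without replicate A or B of empty vector.

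Ifitm3 (chromosome 7, 141009586 to 141010770) moved with mutant CSF3R. It was at 794, 788 and 808 CPM with both mutants, 291, 233 and 273 CPM with mutant CEBPA, 1174, 955 and 844 CPM with mutant CSF3R and 166, 170 and 205 CPM with empty vector. The 4 groups did not overlap. It was the 1 member that rose with mutant CSF3R (5.50-fold, adjusted p = 1.23e-07), it rose with both mutants (4.42-fold, adjusted p = 2.04e-07), and it was the 1 member higher with both mutants than with mutant CEBPA (3.0-fold, adjusted p = 3.77e-06). With mutant CEBPA it rose 1.47-fold (adjusted p = 0.0091). Because Ifitm3, Ly6e and Lgals9 took between 40.6% and 74.9% of the summed CPM of the members in each library, that sum was also taken without them, and it was then 767 to 816 CPM with both mutants, 2150 to 2376 CPM with mutant CEBPA, 694 to 888 CPM with mutant CSF3R and 941 to 1141 CPM with empty vector.

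Xaf1, a factor that antagonizes inhibitors of apoptosis, and the pair Ifi27 and Ifi27l2a, small proteins of mitochondrial and nuclear membranes, all peaked with mutant CEBPA and had empty vector second. Xaf1 (chromosome 11, 72301629 to 72313733) was at 1.32, 1.41 and 2.64 CPM with both mutants, 26.5, 18.8 and 20.1 CPM with mutant CEBPA, 1.92, 1.54 and 1.14 CPM with mutant CSF3R and 3.69, 3.50 and 3.22 CPM with empty vector. All libraries with both mutants or mutant CSF3R lay below the empty vector libraries. It was 6.28-fold higher with mutant CEBPA (adjusted p = 9.01e-06) and 1.92-fold lower with both mutants (adjusted p = 0.019, lost without replicate A or B of either group) than with empty vector. Ifi27 averaged 15.7 ± 2.03 CPM with both mutants, 161 ± 17.2 CPM with mutant CEBPA, 23.8 ± 4.74 CPM with mutant CSF3R and 69.3 ± 3.61 CPM with empty vector (SD, n = 3 each). All 3 genes fell with mutant CSF3R and with both mutants against empty vector, and all 3 had a negative interaction.

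Ifi44 and Rtp4 showed 2 of the largest rises with mutant CEBPA. Ifi44 (chromosome 3, 151730922 to 151749960), an interferon-induced protein linked to slower cell growth, was at 0.508, 0.358 and 0.388 CPM with both mutants, 19.6, 14.2 and 18.7 CPM with mutant CEBPA, 0.351, 0.0304 and 0.237 CPM with mutant CSF3R and 0.753, 0.721 and 1.02 CPM with empty vector. The mutant CEBPA libraries stood far above the rest, and 59 counts in all were read with both mutants. It was 21.0-fold higher with mutant CEBPA than with empty vector (adjusted p = 2.26e-06), and its interaction was -3.28 ± 0.64 (adjusted p = 0.022). Rtp4 (chromosome 16, 23520291 to 23614222), a chaperone for receptor transport, was at 2.81, 2.75 and 3.53 CPM with both mutants, 80.9, 54.2 and 66.6 CPM with mutant CEBPA, 1.76, 0.776 and 1.49 CPM with mutant CSF3R and 6.84, 5.53 and 4.55 CPM with empty vector. Its 4 groups did not overlap. It was 11.9-fold higher with mutant CEBPA (adjusted p = 7.67e-07), 4.28-fold lower with mutant CSF3R (adjusted p = 1.05e-04) and 1.86-fold lower with both mutants (adjusted p = 0.020, lost without replicate A or B of both mutants or A of empty vector), each against empty vector.

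Trim30a (chromosome 7, 104409025 to 104465193), a mouse regulator of inflammatory signaling, kept part of its rise when both mutants were present. It was at 44.7, 45.3 and 52.3 CPM with both mutants, 104, 85.4 and 103 CPM with mutant CEBPA, 37.3, 30.0 and 38.4 CPM with mutant CSF3R and 27.9, 27.2 and 28.0 CPM with empty vector. The groups did not overlap, and empty vector was the lowest. It was 3.53-fold higher with mutant CEBPA (adjusted p = 5.41e-07) and 1.71-fold higher with both mutants (adjusted p = 3.54e-04) than with empty vector. With mutant CSF3R alone its log2 fold change of 0.35 ± 0.12 did not pass (adjusted p = 0.058), but it passed with the length trend taken out, with replicates blocked by letter and without replicate B of mutant CSF3R.

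Among members with small changes, Lgals9 encodes a galectin and Ifi35 a protein that joins the factor NMI in interferon responses. Lgals9 (chromosome 11, 78962974 to 78984946) was at 268, 279 and 280 CPM with both mutants, 501, 438 and 458 CPM with mutant CEBPA, 236, 280 and 340 CPM with mutant CSF3R and 348, 329 and 352 CPM with empty vector. Ifi35 (chromosome 11, 101448407 to 101458698) was at 28.1, 28.6 and 29.1 CPM with both mutants, 66.5, 49.0 and 52.6 CPM with mutant CEBPA, 43.9, 38.6 and 32.3 CPM with mutant CSF3R and 37.1, 40.2 and 45.3 CPM with empty vector. In both genes all mutant CEBPA libraries were above the empty vector libraries, and all libraries with both mutants were below them. They rose 1.36-fold (adjusted p = 0.020) and 1.37-fold (adjusted p = 0.037) with mutant CEBPA, and the call was lost without replicate A or C of mutant CEBPA or B of empty vector in Lgals9, and in Ifi35 without any 1 of 8 libraries. Ifi35 fell 1.43-fold with both mutants against empty vector (adjusted p = 0.017), which was lost without replicate A or B of both mutants or C of empty vector, and Lgals9 did not pass (adjusted p = 0.079).

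The Mx GTPases, which trap viral nucleoproteins and are defective in many inbred mouse strains, were near the limit of detection: Mx1 and Mx2 had 5 counts each over the 3 libraries with both mutants, against means of 2.66 ± 0.49 and 2.34 ± 1.08 CPM with mutant CEBPA. Both rose with mutant CEBPA and fell with both mutants against empty vector, the fall of Mx2 not without replicate C of both mutants. Zbp1, a sensor of Z-form nucleic acid that can start necroptosis, rose with mutant CEBPA (log2 fold change 1.01) and fell with both mutants (-1.09), with 0.09 for mutant CSF3R. Eif2ak2, which encodes the translation-blocking kinase PKR, and Adar, which edits adenosine in double-stranded RNA, rose with mutant CEBPA by 0.54 and 0.79 and were within 0.13 of empty vector with both mutants, on the log2 scale. Epsti1 rose 3.89-fold with mutant CEBPA and Sp100, a nuclear body protein, 1.46-fold.

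Parp9, Dtx3l and Parp14 encode ADP-ribosylation enzymes, of which PARP9 and DTX3L work as a pair, and their genes adjoin on chromosome 16 between 35832874 and 35972605. All 3 rose with mutant CEBPA, with log2 fold changes of 1.39, 0.84 and 0.99, and none of the 3 passed the test for both mutants against empty vector (0.14, -0.06 and -0.32). Parp9 and Dtx3l share 458 bases of exon on opposite strands, and since the strand setting of the counting is not given, reads of that part cannot be assigned to either gene. Samd9l, a growth-restricting antiviral factor, rose with mutant CEBPA (2.18-fold) and ran from 26.4 to 70.1 CPM among mutant CSF3R libraries, with replicate C the highest. Phf11d was read at under 1 CPM in every library and passed no comparison with empty vector. Lgals3bp, which encodes a secreted galectin-binding protein, rose 2.07-fold with mutant CEBPA.

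**Figure D4:**
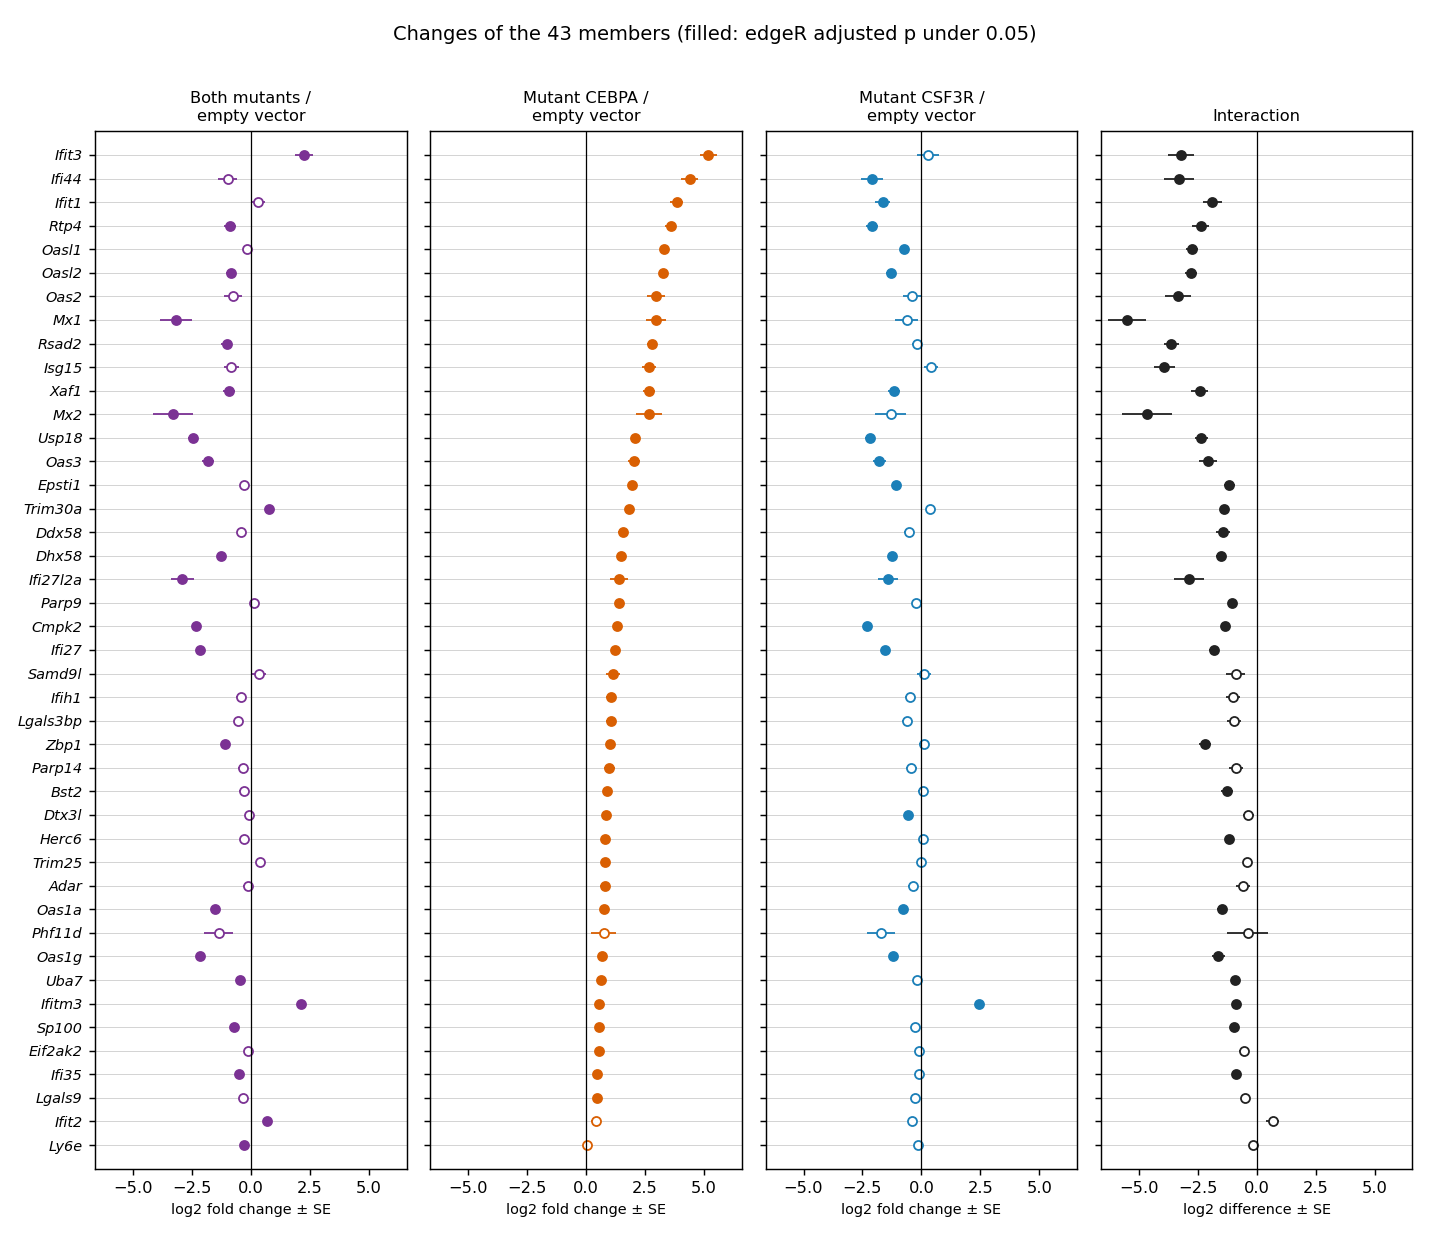
Log2 fold changes of the 43 members with their standard errors for both mutants, mutant CEBPA and mutant CSF3R against empty vector, and the interaction on the right; members run from the largest to the smallest change with mutant CEBPA. Filled points have an edgeR adjusted p under 0.05: 40 are filled to the right of 0 for mutant CEBPA, 31 to the left of 0 for the interaction.

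Levels between genes were compared per kilobase of transcript (RPKM, from CPM and transcript lengths of GENCODE M21). With mutant CEBPA the highest levels were those of Ifitm3 at 392 RPKM, Ly6e at 232 RPKM, Lgals9 at 218 RPKM, Bst2 at 153 RPKM and Ifi27 at 110 RPKM. The 4 genes with the largest fold changes were lower, with Ifit3 at 2.48 RPKM, Ifi44 at 2.85 RPKM, Ifit1 at 9.71 RPKM and Rtp4 at 31.6 RPKM. With empty vector their levels were 0.0673, 0.136, 0.676 and 2.65 RPKM, in the same order. None of these 4 was among the 5 most abundant members with empty vector, which were Ifitm3, Ly6e, Lgals9, Bst2 and Ifi27.

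Transcripts of the interferon ligands themselves were nearly absent. Of 21 type I, II and III interferon genes looked up, 0 passed the filter, 15 had no count in any library, and their summed level was at most 0.221 CPM in any library. Ifnb1 had 4 counts over all 12 libraries, all of them with mutant CEBPA. The summed level was 0.0224 to 0.221 CPM with both mutants, 0.161 to 0.180 CPM with mutant CEBPA, 0.0456 to 0.165 CPM with mutant CSF3R and 0.0612 to 0.0874 CPM with empty vector. The mutant CEBPA libraries thus lay above those of empty vector and within the range of those with both mutants, and it rested on 4 to 17 counts per gene over the 12 libraries.

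Among the 6 receptor genes, 2 rose with mutant CEBPA, 4 with mutant CSF3R and 2 with both mutants against empty vector, and 0 fell. Of all genes, 9.5% rose and 7.68% fell with mutant CEBPA, 10.0% and 9.66% with mutant CSF3R, and 10.7% and 10.7% with both. Ifnlr1, among the 4, had 81 counts over all libraries and passed the filter only through mutant CSF3R, so its direction was fixed. Ifnar2, a chain of the type I receptor, had means of 71.0 CPM with both mutants, 66.96 CPM with mutant CEBPA, 57.4 CPM with mutant CSF3R and 44.1 CPM with empty vector, and it rose in all 3 comparisons. Ifnar1 was at 69.5, 66.8, 51.9 and 51.4 CPM in the same groups and passed none of them. The kinases Jak1, Jak2 and Tyk2 passed against empty vector in no group. The signal carriers Stat2 and Irf9 rose with mutant CEBPA, with log2 fold changes of 0.76 and 1.29, and had negative interactions of -0.80 and -1.04. Irf9 averaged 25.1 CPM with both mutants, 73.4 CPM with mutant CEBPA, 21.1 CPM with mutant CSF3R and 30.04 CPM with empty vector, and it also fell with mutant CSF3R (-0.51).

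Irf7, the factor that amplifies interferon production and is itself interferon-induced, also peaked with mutant CEBPA. It averaged 5.24 CPM with both mutants, 82.8 CPM with mutant CEBPA, 4.67 CPM with mutant CSF3R and 10.50 CPM with empty vector. Its log2 fold change against empty vector was 2.98 with mutant CEBPA, -1.18 with mutant CSF3R and -1.0 with both mutants, all of which passed, and its interaction was -2.81. Over the 11 tested genes of interferon induction, 3 rose and 2 fell with mutant CEBPA, 3 rose and 2 fell with mutant CSF3R, and 4 rose and 2 fell with both mutants. Of all genes, 9.5% rose and 7.68% fell with mutant CEBPA, 10.0% and 9.66% with mutant CSF3R, and 10.7% and 10.7% with both. These counts were not tested. Tmem173, which encodes the DNA-sensing adaptor STING, rose in all 3 groups and was highest with both mutants, at 285 CPM, against 148 CPM with mutant CEBPA, 116 CPM with mutant CSF3R and 48.2 CPM with empty vector.

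Of 6 tested negative regulators, 0 rose and 2 fell with mutant CEBPA, 3 rose and 0 fell with mutant CSF3R, and 1 rose and 0 fell with both mutants. The shares of all genes were 9.5% and 7.68% with mutant CEBPA, 10.0% and 9.66% with mutant CSF3R, and 10.7% and 10.7% with both. So few genes were not tested as a list. Socs1 and Socs3 encode feedback inhibitors of JAK kinases. Socs3 averaged 82.3 CPM with both mutants, 14.9 CPM with mutant CEBPA, 141 CPM with mutant CSF3R and 28.5 CPM with empty vector, and Socs1 averaged 23.9, 14.3, 30.1 and 22.5 CPM in those groups. Both fell with mutant CEBPA, and Socs3 rose with mutant CSF3R and with both mutants.

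The guanylate-binding proteins and immunity GTPases, which attack the membranes around intracellular microbes, and the Ifi200 family of nuclear DNA-binding proteins were set beside the antiviral members. Of 15 tested GTPase genes, 13 rose and 0 fell with mutant CEBPA, 0 rose and 12 fell with mutant CSF3R, and 4 rose and 2 fell with both mutants against empty vector; 9 were higher and 0 lower with both mutants than with mutant CSF3R, and 13 were lower and 0 higher than with mutant CEBPA. Of 10 tested Ifi200 genes, 9 rose and 0 fell with mutant CEBPA, 0 rose and 5 fell with mutant CSF3R, 5 rose and 0 fell with both mutants, and with both mutants 8 were higher and 0 lower than with mutant CSF3R and 6 were lower and 0 higher than with mutant CEBPA. The median log2 fold change for both mutants against empty vector was 0.23 for the GTPases and 1.34 for the Ifi200 family, against -0.52 for the antiviral members. For both mutants against mutant CEBPA it was -1.43 and -1.40, against -2.11. The interaction was negative for 2 of 15 GTPase genes and positive for 0, and negative for 0 of 10 Ifi200 genes and positive for 1, against 31 and 0 of 43 antiviral members. By the interaction term, 1.27% of all genes were negative and 0.501% positive. The counts of the families were not tested against one another. Over all genes, 9.5% rose and 7.68% fell with mutant CEBPA, 10.0% and 9.66% with mutant CSF3R, and 10.7% and 10.7% with both mutants. Shares higher and lower with both mutants were 8.43% and 10.1% against mutant CSF3R and 7.79% and 10.1% against mutant CEBPA. Ifi213 had no counts with empty vector or mutant CSF3R and passed the filter only through its other groups, so its direction was fixed.

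Examples were chosen after their values were seen. Gbp7 averaged 82.7 CPM with both mutants, 172 CPM with mutant CEBPA, 30.9 CPM with mutant CSF3R and 63.8 CPM with empty vector, and was lower with both mutants than with mutant CEBPA (log2 difference -1.05). Mndal, of the Ifi200 family, averaged 34.9, 107, 9.004 and 19.5 CPM in those groups and was lower in the same comparison (-1.61). The difference did not pass in Gbp5 and Ifi209. Gbp5 averaged 33.0 CPM with both mutants, 47.4 CPM with mutant CEBPA, 1.86 CPM with mutant CSF3R and 5.09 CPM with empty vector. Ifi209 averaged 112, 134, 0.602 and 3.10 CPM in those groups, and the log2 differences for both mutants against mutant CEBPA were -0.52 and -0.25. Ifi213 had 0 counts with mutant CSF3R and with empty vector, and against a floor of 3 counts over the 3 empty vector libraries it was at least 379-fold higher with mutant CEBPA and at least 130-fold higher with both mutants. Members of these families can share reads with close copies and are uncertain as single genes.

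**Figure D5:**
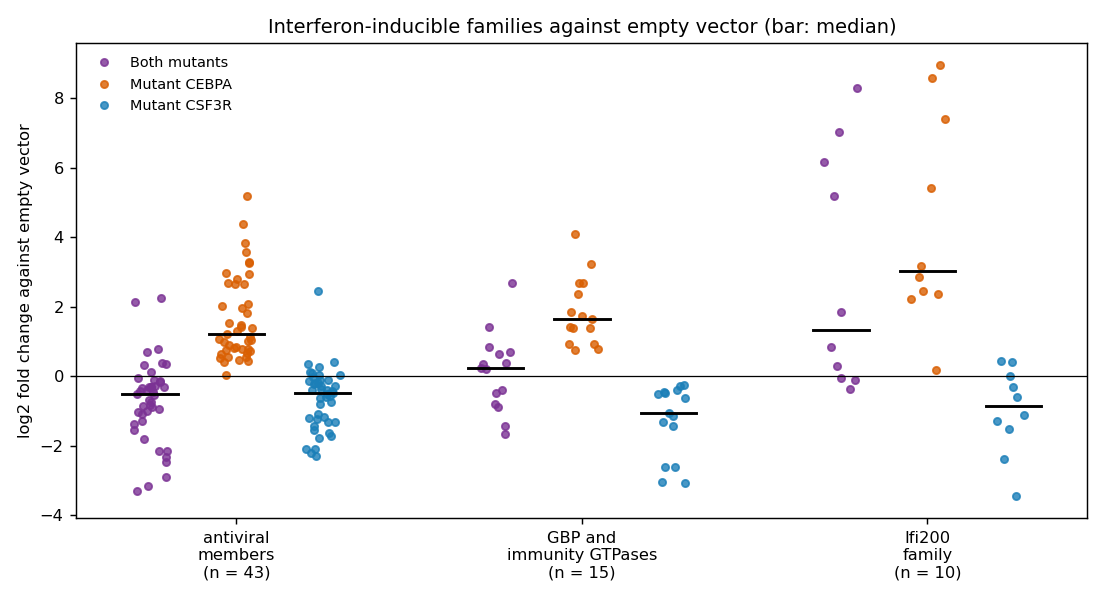
Log2 fold changes against empty vector for the 43 antiviral members, 15 guanylate-binding proteins and immunity GTPases and 10 Ifi200 genes. Points are genes, bars are medians, and Ifi213, with no counts with empty vector, is drawn at its lower bound. With both mutants the medians were -0.52, 0.23 and 1.34.

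Markers of other cells that the sort could hold were counted beside the members. For comparison, 9.5% of all genes rose and 7.68% fell with mutant CEBPA. Of 7 tested plasmacytoid dendritic cell markers, 2 rose and 1 fell with mutant CEBPA, and the summed level of the 10 listed was 118 to 122 CPM with both mutants, 111 to 116 CPM with mutant CEBPA, 55.6 to 62.0 CPM with mutant CSF3R and 60.9 to 65.8 CPM with empty vector. Most of it came from Tcf4, which B cells and progenitors also express. Among listed markers that did not pass the filter, Siglech had 8 counts and Klk1 0 over the 12 libraries, and they do not stand for the 7 tested. Of 7 tested conventional dendritic cell markers, 1 rose (Flt3, which early progenitors share) and 0 fell with mutant CEBPA, and the sum was 26.3 to 30.1 CPM with both mutants, 43.1 to 49.0 CPM with mutant CEBPA, 28.3 to 31.8 CPM with mutant CSF3R and 34.4 to 43.1 CPM with empty vector. Cd209a had 0 counts and Clec9a 37, and they do not stand for the list as a whole. Presence of these cells was not tested. Of 8 tested monocyte and macrophage markers, 2 rose and 3 fell with mutant CEBPA, with sums of 325 to 329 CPM with both mutants, 355 to 461 CPM with mutant CEBPA, 251 to 380 CPM with mutant CSF3R and 383 to 521 CPM with empty vector.

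Of the lymphoid markers, 2 of 5 for B cells and 2 of 7 for T and NK cells passed the filter. Among the rest, Ms4a1 and Pax5 had 1 and 2 counts and Cd3e and Cd8a 1 and 0 counts over all libraries. The B cell markers summed to 5.32 to 5.82 CPM with both mutants, 9.02 to 9.49 CPM with mutant CEBPA, 8.51 to 8.76 CPM with mutant CSF3R and 12.2 to 14 CPM with empty vector, and of 2 tested, 1 (Cd79b) fell with mutant CEBPA. The 7 T and NK cell markers summed to 54.8 to 65.9 CPM, 123 to 131 CPM, 128 to 207 CPM and 318 to 372 CPM in the same groups, nearly all from Nkg7, which fell with mutant CEBPA, while Klrb1c, the other one tested, rose. The 7 neutrophil markers summed to 750 to 891 CPM with both mutants, 66.4 to 120 CPM with mutant CEBPA, 3580 to 8560 CPM with mutant CSF3R and 404 to 961 CPM with empty vector, and 5 of them fell with mutant CEBPA and 4 rose with mutant CSF3R. The 10 stem and progenitor markers summed to 397 to 408 CPM, 677 to 765 CPM, 398 to 511 CPM and 861 to 1090 CPM in those groups, and 6 rose and 2 fell with mutant CEBPA, against 2 that rose and 6 that fell with mutant CSF3R. The 6 erythroid markers summed to 198 to 207 CPM, 24.1 to 30.1 CPM, 447 to 827 CPM and 38.3 to 44.4 CPM, with 3 that fell with mutant CEBPA and 6 that rose with mutant CSF3R and with both mutants. Shares of all genes that rose and fell were 9.5% and 7.68% with mutant CEBPA, 10.0% and 9.66% with mutant CSF3R, and 10.7% and 10.7% with both. The part of the marker shifts in the antiviral values was not tested.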

How the data were processed

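RNA-seq was measured in 12 libraries of lineage-negative, marker-positive mouse bone marrow cells. The authors trimmed reads (Trimmomatic), aligned them to mm10 (STAR) and compared groups with DESeq2. How reads were assigned to genes, with which annotation and strand setting, is not stated in the material at hand. The deposited file holds raw counts per gene, not normalized. It has 0 columns without a sample, and 6 of its 51918 lines repeated a gene and were dropped.

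edgeR 4.0.16 in R 4.3.3 was used for the tests (quasi-likelihood F test, robust estimation, TMM scaling, default filter by group), with CSF3R, CEBPA and their interaction in 1 model over all 12 libraries and Benjamini-Hochberg adjustment over 16360 genes. CPM were computed with TMM-scaled library sizes, and the script was tested on simulated data. Totals of 44210071 to 67431235 counts set the precision. No pair of replicates agreed within counting error. The series states 3 biological replicates a group but not whether they come from separate animals. The p-values therefore rest on the spread between these samples and may not extend to other animals. That spread was estimated jointly over all groups, though it ran from 0.0455 with both mutants to 0.265 with mutant CSF3R. Coordinates and lengths are those of GENCODE M21 on mm10.

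The members and all lists were chosen with earlier results of these data known. Values in every library are given for the 10 members with the largest change with mutant CEBPA and the 4 with the largest interaction, among those reaching 5 CPM in some group, for the 4 with the smallest change, for those called against the majority in a comparison (where 1 direction held most calls), and for Isg15 and Usp18. Other members were named after their values were seen. Floors and counts near 0 cover counting error only. Reads of Parp9 and Dtx3l, and of Adar and Chrnb2, overlap in part. Alternatives were DESeq2 1.42.0, RLE size factors, total counts, no filter on low counts, the letter as a block, the length trend taken out, only the groups compared, a log2 fold change over 1 as the study required, and each library left out. Some genes of the lists are not reported here.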

Additional observations from a re-analysis of the deposited data

Results flagged for a closer look

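Mutant CSF3R acted differently in cells that also carried mutant CEBPA than in cells that did not, by the interaction term of the edgeR fit, in 31 of the 43 members, all in the negative direction. Among all genes tested, 1.27% were called negative by that term and 0.501% positive. The values below are log2 differences, and each had an adjusted p under 0.05. Of the 31, 21 kept the call with any library left out. The other 10 were Ifit1, Ifi44, Mx2, Ddx58, Bst2, Ifi27l2a, Ifi35, Epsti1, Sp100 and Ifitm3. All of these but Ifi44 and Epsti1 also lost the call with replicates blocked by letter. In the ISG15 system it was -3.91 for Isg15, -2.35 for Usp18, -1.16 for Herc6 and -0.918 for Uba7. In the OAS family it was -3.35 for Oas2, -2.80 for Oasl2, -2.73 for Oasl1, -2.06 for Oas3, -1.62 for Oas1g and -1.49 for Oas1a. Among RNA-binding proteins and sensors it was -3.21 for Ifit3, -1.88 for Ifit1, -2.19 for Zbp1, -1.52 for Dhx58 and -1.43 for Ddx58. The Mx genes had -5.50 for Mx1 and -4.64 for Mx2, both fitted from 5 counts over the 3 libraries with both mutants. Among membrane and nucleotide effectors it was -3.62 for Rsad2, -1.34 for Cmpk2, -1.26 for Bst2 and -0.873 for Ifitm3. For Ifi27l2a it was -2.88, for Xaf1 -2.42 and for Ifi27 -1.81. Of the remaining members it was -3.28 for Ifi44, -2.37 for Rtp4, -1.39 for Trim30a, -1.17 for Epsti1, -1.03 for Parp9, -0.960 for Sp100 and -0.875 for Ifi35. Ifitm3 is the 1 member of these in which mutant CSF3R alone gave a rise, and the rise was smaller in the presence of mutant CEBPA.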

How the results depend on the processing

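Among 4854 values of members under an alternative, 68 had another sign than the value reported, and 0 of these were called in either fit. With a log2 fold change over 1 required as well, the members called for mutant CEBPA against empty vector numbered 26 instead of 40, for both mutants against empty vector 2 higher and 12 lower instead of 4 and 19, and for both mutants against mutant CSF3R 4 higher and 3 lower instead of 8 and 8. With only the compared groups fitted, the last pair was 5 and 3, and 2 members instead of 1 were higher with both mutants than with mutant CEBPA. Mutant CSF3R against empty vector gave 25 lower members with total counts and 12 with only the compared groups fitted, instead of 16. It gave 2 higher instead of 1 with the length trend taken out and with the replicate block. With each library left out, that comparison had 1 to 2 higher and 13 to 26 lower, both mutants against mutant CSF3R 5 to 13 higher and 3 to 12 lower, and the interaction 0 to 1 higher. Total counts moved the median of all genes by -0.109 for mutant CSF3R against empty vector, the largest shift under any scaling, and gave a median over the members of 0.05 instead of -0.03 for both mutants against mutant CSF3R (0.0032 with the compared groups only). With no filter on low counts, Oas2 lost its interaction call.

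Whether equal letters pair the samples is not stated. Of 18 same-letter pairs of libraries 5 had correlated deviations over 0.1 (r from -0.764 to 0.659), and 4 of the 12 libraries correlated best with their own letter. Pairs of different letters ran from -0.717 to 0.821, the highest being replicate A of empty vector with replicate C of mutant CSF3R. Because deviations were also shared across letters, these correlations cannot exclude pairing. The replicate block removed 8 members from the 31 negative interactions and 1, Ifi35, from the 40 that rose with mutant CEBPA. It also removed Ly6e from both mutants against empty vector, Dtx3l from mutant CSF3R against empty vector, and Sp100 and Trim25 from both mutants against mutant CSF3R, and it added Trim30a with mutant CSF3R. Depth limited Mx1, Mx2, Ifit1, Ifit3, Ifi44, Ifi27l2a and Phf11d, which had fewer than 100 counts over the 3 libraries of at least 1 group.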
